A study of Mus musculus with 50 samples.

Results

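The comparison concerns ribosome-bound mRNA of D1 neurons and D2 neurons in the nucleus accumbens (NAc) of mice that had not been defeated. Its members are 9 of the 50 deposited samples, chosen by their labels: 4 immunoprecipitated libraries of RT;D1-Cre controls (D1 Con 1 to D1 Con 4) and 5 of RT;D2-Cre controls (D2 Con 1 to D2 Con 5). Every mouse in both groups carried the RiboTag (RT) allele, which adds an HA tag to the ribosomal protein Rpl22 in cells that express Cre recombinase, together with 1 Cre transgene. The controls, C57BL/6 mice of 8 to 12 weeks, were not defeated and lived beside other mice of the strain. Like the defeated mice, they took a social interaction test with an unfamiliar CD1 mouse held in a wire cage. Each library came from the pooled NAc punches (2 mm wide) of 2 mice with similar scores in that test. The p-values thus measure the spread between such pairs of mice only. In these lines Cre is driven by regulatory sequence of *Drd1* or *Drd2* on a transgene, and a cell that used the transgene at any earlier stage keeps the tag. The other libraries used here were 19 IPs of defeated mice and 18 inputs, that is, RNA of the whole homogenate before precipitation.

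The NAc is built mainly of inhibitory medium spiny neurons (MSNs), which fall into one type with the dopamine receptor D1 and one with the dopamine receptor D2. D1 receptors couple to stimulatory G proteins and raise cAMP, whereas D2 receptors couple to inhibitory G proteins and lower it. D1-MSNs classically release dynorphin and substance P and project to the midbrain and ventral pallidum, and D2-MSNs release enkephalin and project mainly to the ventral pallidum. D2 receptors are also found on striatal cholinergic interneurons, and D1 receptors on many cells of the cortex.

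The 9 libraries held 21591075 to 30187149 counts on genes, and values are given as CPM, counts scaled to the depth of the library after TMM normalization. Some libraries stood apart. The ribosomal RNA gene *Rn45s* took 7.30% of the counts in D2 Con 2 and 5.63% in D2 Con 5, against 0.438% to 2.72% in the other libraries. The same libraries had the highest shares of reads outside exons, at 16.8% and 15.8%, while D1 Con ran from 10.9% to 11.7% and the remaining D2 Con libraries from 11.7% to 13.1%. All 5 D2 Con libraries lay above all D1 Con libraries in this share (exact permutation test, two-sided p = 0.0159, n = 4 and 5). The test takes no account of the replicate number, with which the share also moved. In the IPs of defeated mice, replicate 5 was at 13.9% in the D1 line and at 17.1% and 17.6% in the D2 line. D1 Con has no replicate 5 among the samples used. D1 Con 1 was highest of its group in genes that both MSN types use and lowest in genes of cortical neurons, as described further on. Where a gene described here lost its call without D1 Con 1, or without D2 Con 2 and D2 Con 5 together, that is given with the gene.

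Of 14224 genes tested with edgeR's quasi-likelihood test, 709 differed between D1 Con and D2 Con by more than 1.5-fold at an adjusted p under 0.05 (4.98%), which is what "called" means here. Among them, 487 (3.42%) were higher in D1 Con and 222 (1.56%) higher in D2 Con. The median log2 fold change was 1.01 for the former and -0.86 for the latter, against -0.0090 over all genes tested. Large differences were also more numerous on the D1 side: 46 genes were over 4-fold higher in D1 Con and 14 in D2 Con, while 11 and 9 were over 8-fold. At any fold change, the adjusted p was under 0.05 for 1990 genes (14%), 1099 of them higher in D1 Con and 891 in D2 Con. In 548 of the 709 genes the 4 D1 Con values and the 5 D2 Con values did not overlap, as in 12.95% of all genes tested. Tested against a fold of 1.5 rather than limited by it (glmTreat), 167 genes remained, 125 of them higher in D1 Con. In bulk RNA, fewer cells of a type and less RNA per cell cannot be told apart.

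**Figure D1:**
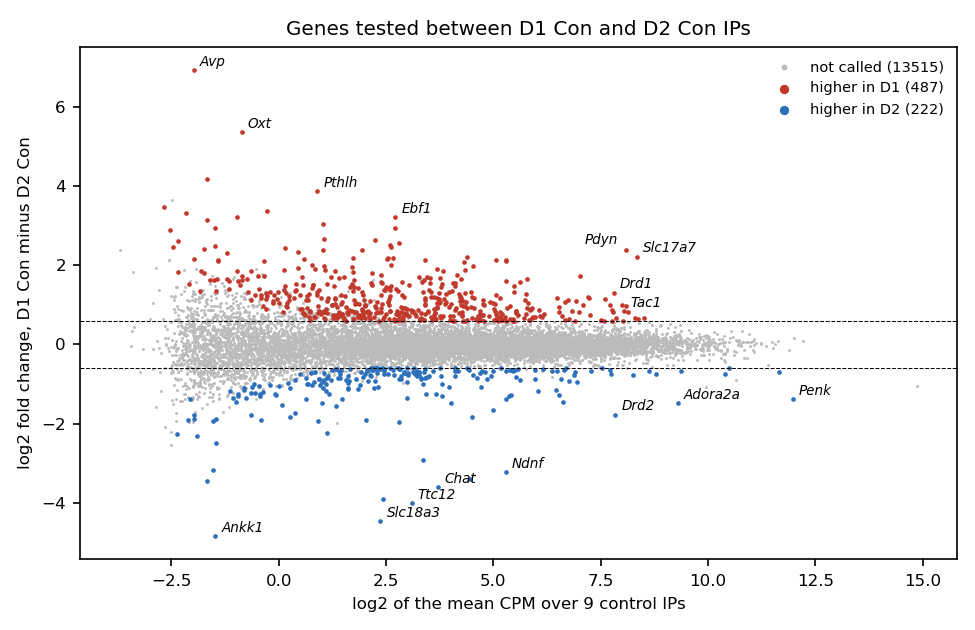
Each point is 1 of 14224 genes tested, with the log2 of its mean CPM over 9 control IPs on the horizontal axis and its log2 fold change (D1 Con minus D2 Con) on the vertical axis. Red points are the 487 genes called higher in D1 Con, blue points the 222 called higher in D2 Con, gray points all others, and dashed lines mark a fold of 1.5. The markers of the MSN types lie among well-counted genes, while *Avp*, *Oxt* and *Ankk1* have few counts.

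The labels were first checked on marker genes. Of 9 D1-MSN markers, 8 were called, all higher in D1 Con. *Drd1* itself lay at 387, 302, 341 and 306 CPM in D1 Con and at 165, 128, 121, 141 and 118 CPM in D2 Con. All D1 Con values lay above all D2 Con values, and the log2 fold change was 1.31 (SE 0.114, edgeR adjusted p = 2.05e-09). *Pdyn*, which encodes the precursor of dynorphin, lay at 566, 453, 459 and 497 CPM in D1 Con and from 76.2 to 123 CPM in D2 Con. Its log2 fold change was 2.38 (SE 0.156, edgeR adjusted p = 8.05e-12), and D1 Con 1 was the highest of the 9 libraries. *Ebf1*, a helix-loop-helix transcription factor of D1-MSN development on chromosome 11 (44617317 to 45008091, GRCm38), showed the widest gap of the list. It lay at 16.6, 11.0, 13.2 and 11.0 CPM in D1 Con and between 1.27 and 1.67 CPM in the 5 D2 Con libraries, 9.22-fold apart (edgeR adjusted p = 4.42e-10).

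The other D1-MSN markers followed with smaller differences. *Slc35d3*, which encodes a nucleotide sugar transporter-like protein, averaged 78.1 ± 5.51 CPM over 4 D1 Con libraries (mean ± SD, as in all such values) and 26.0 ± 5.17 CPM over 5 D2 Con libraries, which gave a log2 fold change of 1.59. *Isl1*, a LIM homeobox factor that specifies striatonigral neurons, was 2.52-fold higher in D1 Con, with values of 22.5 to 24.5 CPM against 7.23 to 13.2 CPM. *Tac1*, the substance P precursor, and *Chrm4*, the muscarinic M4 receptor, were 1.78-fold and 1.76-fold higher in D1 Con, and neither overlapped between the groups. *Sfxn1*, a mitochondrial serine carrier that lies 16.2 kb from *Drd1*, was only just past the limit at 1.52-fold. Its call was lost without D2 Con 2, at a log2 fold change of 0.56. *Eya1* was not called: its values of 5.25 to 8.43 CPM in D1 Con overlapped those of 4.56 to 6.01 CPM in D2 Con (log2 fold change 0.22, edgeR adjusted p = 0.305).

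All 8 D2-MSN markers were called, and all were higher in D2 Con. *Drd2* lay at 314, 343, 312, 337 and 368 CPM in D2 Con and at 119, 98.7, 84.9 and 89.9 CPM in D1 Con. Its log2 fold change was -1.77 (SE 0.0892, edgeR adjusted p = 1.92e-14), and no D1 Con library came near the D2 Con range. *Adora2a*, the adenosine receptor that raises cAMP in D2-MSNs, lay at 882, 941, 809.5, 829.7 and 928 CPM in D2 Con and at 406, 301, 270.4 and 287 CPM in D1 Con. The difference was 2.78-fold (edgeR adjusted p = 8.05e-12), with D1 Con 1 highest in its group, as it was for *Drd2*. *Penk*, the enkephalin precursor, lay at 5932, 5414, 4928, 5114 and 6266 CPM in D2 Con and at 2726, 1933, 2051 and 1836 CPM in D1 Con, 2.59-fold lower there.

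Among the orphan receptors, *Gpr6* averaged 137 ± 15.1 CPM in D2 Con (n = 5) and 49.9 ± 9.24 CPM in D1 Con (n = 4), and *Gpr52* 86.9 ± 12.3 and 38.5 ± 3.98 CPM. Of the transcription factors, *Sp9*, which D2-MSNs need for their development, was 2.59-fold higher in D2 Con, and *Six3* was 1.61-fold higher. *Grik3*, a kainate receptor subunit, was 1.70-fold higher in D2 Con. D2-MSN markers stayed well above 0 in every D1 Con library, as did D1-MSN markers in every D2 Con library.

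**Figure D2:**
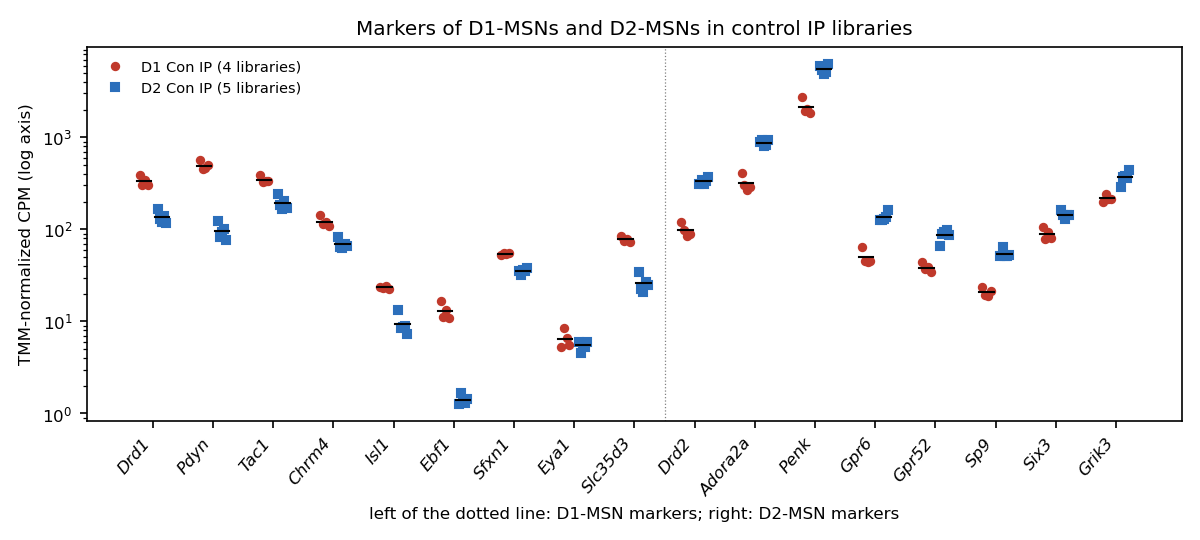
TMM-normalized CPM (log axis) of 9 D1-MSN markers, left of the dotted line, and 8 D2-MSN markers, right of it. Red circles are the 4 D1 Con IP libraries, blue squares the 5 D2 Con IP libraries and black bars the group means; the groups separate in all markers but *Eya1*.

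Promoters of the genes that define the comparison are shown because *Ebf1* was the D1-MSN marker with the widest gap and EBF factors bind the palindrome CCCNNGGG within a longer motif. The windows run from 250 bases before to 50 bases after the start of transcription (RefSeq, GRCm38.p6, 5′ to 3′ on the strand of the gene), are the first listed for each gene, and have each match to CCCNNGGG in capitals. *Drd1* is at chr13:54055609-54055908 (minus strand), *Pdyn* at chr2:129699889-129700188 (minus strand) and *Drd2* at chr9:49340153-49340452 (plus strand).
Drd1: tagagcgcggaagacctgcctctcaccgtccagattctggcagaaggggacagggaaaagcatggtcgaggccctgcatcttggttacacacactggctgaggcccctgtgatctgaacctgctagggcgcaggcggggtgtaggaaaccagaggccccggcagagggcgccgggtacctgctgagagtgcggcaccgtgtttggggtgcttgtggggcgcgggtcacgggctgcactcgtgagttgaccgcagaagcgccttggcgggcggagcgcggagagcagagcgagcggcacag
Pdyn: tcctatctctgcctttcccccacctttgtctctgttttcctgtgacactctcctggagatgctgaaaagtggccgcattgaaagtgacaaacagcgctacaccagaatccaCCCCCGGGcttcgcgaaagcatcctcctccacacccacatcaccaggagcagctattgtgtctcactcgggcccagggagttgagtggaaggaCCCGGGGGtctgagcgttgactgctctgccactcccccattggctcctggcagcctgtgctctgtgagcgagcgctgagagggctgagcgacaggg
Drd2: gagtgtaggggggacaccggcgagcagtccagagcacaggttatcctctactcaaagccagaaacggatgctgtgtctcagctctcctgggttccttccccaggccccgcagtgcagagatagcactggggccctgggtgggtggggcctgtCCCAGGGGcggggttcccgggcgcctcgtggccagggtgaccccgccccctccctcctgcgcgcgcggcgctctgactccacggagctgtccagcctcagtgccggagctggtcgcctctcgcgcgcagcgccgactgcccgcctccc
The palindrome reads the same on both strands. The *Pdyn* window holds 2 matches, that of *Drd2* 1 and that of *Drd1* none, which says only that these letters are absent from that window. In all, 81 of 354 genes called higher in D1 Con that have a window hold a match (22.9%), as do 35 of 160 called higher in D2 Con (21.9%) and 2383 of 11042 genes tested (21.6%). The shares are near each other, and a match is not a binding site.

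Genes that both MSN types use served as a comparison. Of 17 such genes, among them *Ppp1r1b* (DARPP-32), *Bcl11b*, *Pde10a* and *Gad1*, 16 were not called, that is, their differences stayed within 1.5-fold or missed the p limit. At any fold change, 14 of the 17 passed an edgeR adjusted p of 0.05, all higher in D2 Con, against 14% of all genes tested. All 17 genes had negative estimates, with a median log2 fold change of -0.27 against -0.0090 over all genes tested. Their summed level ran from 13110 to 16551 CPM in D1 Con, where D1 Con 1 was highest, and was higher in each D2 Con library. None of the 76 cytosolic ribosomal protein genes tested was called by edgeR or DESeq2, and 0 had an unadjusted p under 0.05. Their log2 fold changes ran from -0.18 to 0.49.

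The labels were also set against the input of each line, where a value above 0 means more RNA in the IP. In D2 Con all 8 D2-MSN markers were above the D2 line's input, from 1.26 (*Grik3*) to 3.03 (*Penk*) on the log2 scale. In D1 Con, 6 of the 8 called D1-MSN markers were above the D1 line's input. *Pdyn* reached 1.5, *Tac1* 1.24 and *Drd1* 0.82, whereas *Ebf1* (0.24, edgeR adjusted p = 0.22) and *Sfxn1* (-0.09, edgeR adjusted p = 0.21) did not pass. Markers of the opposite type were not all below input. All 8 D2-MSN markers were above input in D1 Con as well, from 0.34 (*Drd2*) to 1.46 (*Penk*), with *Adora2a* at 0.94. *Tac1* was above input in D2 Con (0.55), while *Drd1* (-0.30) and *Pdyn* (-0.62) were below it there. Thus the comparison of D1 Con with D2 Con is one of relative levels, not of presence against absence. TMM assumes that most genes do not differ, which does not hold between IP and input, so that these values are relative to the typical gene.

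Neuropeptide genes were called in 40.0% of cases, against 4.98% of all genes tested. Of 35 neuropeptide and granin precursors that passed the filter on low counts, of 54 listed, 11 were called higher in D1 Con and 3 higher in D2 Con. Their median log2 fold change was 0.58. *Cck*, the cholecystokinin precursor, lay at 39.4, 99.5, 70.7 and 65.4 CPM in D1 Con and from 8.70 to 23.7 CPM in D2 Con, 4.30-fold higher in D1 Con (edgeR adjusted p = 0.000404). *Adcyap1*, the precursor of PACAP, lay at 4.09, 15.7, 11.7 and 19.1 CPM in D1 Con and at 0.795 to 3.48 CPM in D2 Con, 7.73-fold higher. In both genes D1 Con 1 was the lowest D1 library, the opposite of its rank for *Pdyn* and *Tac1*. *Pthlh*, a parathyroid hormone-like peptide of striatal interneurons, lay at 4.36, 3.24, 3.81 and 4.13 CPM against 0.147 to 0.388 CPM, 14.7-fold higher in D1 Con (edgeR adjusted p = 2.18e-08). *Agt*, the angiotensin precursor, which astrocytes make, had a log2 fold change of 3.04 and was lower than input in both lines.

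The posterior pituitary hormones rested on few reads. *Oxt*, the oxytocin precursor, had 6, 61, 19 and 47 counts in D1 Con and 1, 0, 1, 1 and 0 in D2 Con. The ratio of the summed counts per read was 47.5, with an exact 95% binomial interval of 15.9 to 233 that covers counting error only. *Avp*, the vasopressin precursor, had 10, 11, 16 and 27 counts in D1 Con and none in any D2 Con library, which makes it at least 3.88-fold higher against a floor of 3 counts per library. Both peptides are made by hypothalamic neurons, and the other listed hypothalamic peptide genes did not pass the filter; whether RNA of such cells took part was not tested.

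Of the peptides higher in D2 Con, *Penk* is given above. *Npy*, neuropeptide Y of somatostatin interneurons, lay at 18.1, 26.6, 23.4, 16.0 and 17.6 CPM in D2 Con and at 9.10, 11.4, 8.69 and 9.68 CPM in D1 Con, 2.09-fold apart (edgeR adjusted p = 0.00131). It was below input in both lines (log2 -0.85 in D2 Con and -2.01 in D1 Con). Among 8 opioid genes, *Pdyn*, *Penk* and *Oprd1* were called (37.5%, against 4.98% of all genes tested). *Oprd1*, the delta receptor on which enkephalin acts, lay at 41.7, 51.3, 57.6, 57.4 and 72.5 CPM in D2 Con and at 20.7 to 24.2 CPM in D1 Con, 2.47-fold higher in D2 Con.

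Receptors for these transmitters were called in both directions. Among 40 receptors for amines, acetylcholine and adenosine, 11 were called higher in D1 Con and 2, *Drd2* and *Adora2a*, higher in D2 Con (32.5% in all, against 4.98% of all genes tested). Those on the D1 side included *Drd1*, *Chrm4*, the alpha-1B adrenergic receptor *Adra1b* (log2 fold change 1.49) and the serotonin receptors *Htr3a* (1.37) and *Htr5b* (1.62). *Htr5b* stayed under 1 CPM in every library and lost its call without D1 Con 3 and also without D2 Con 2 and D2 Con 5. Without the latter pair of libraries, 8 of the 13 amine, acetylcholine and adenosine receptors kept their calls. Of 54 receptors for peptides and hormones, 12 were called higher in D1 Con and 7 higher in D2 Con (35.2% in all, against 4.98% of all genes tested). Without D2 Con 2 and D2 Con 5, 14 of these 19 kept their calls. *Nmbr*, the neuromedin B receptor, lay at 2.39, 6.04, 6.87 and 8.07 CPM in D1 Con against 0.746 to 2.11 CPM in D2 Con, 4.51-fold higher. *Sstr4*, a somatostatin receptor, varied little within D1 Con, from 4.94 to 5.63 CPM, and lay between 0.795 and 2.52 CPM in D2 Con. *Oxtr*, the oxytocin receptor, was 3.25-fold higher in D1 Con, again with D1 Con 1 (11.8 CPM) lowest of its group.

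On the D2 side, *Tacr1*, the receptor for substance P, lay at 32.6, 32.6, 31.6, 37.7 and 32.4 CPM in D2 Con and at 7.87, 9.87, 10.6 and 8.97 CPM in D1 Con, 3.58-fold apart. Substance P is thus encoded by a gene higher in D1 Con (*Tac1*) and its receptor by one higher in D2 Con; *Tacr1* is known from cholinergic interneurons. *Agtr1a*, an angiotensin receptor, was also 3.58-fold higher in D2 Con, at 1.21 to 1.99 CPM against 0.184 to 0.647 CPM. *Npffr1*, a receptor for RFamide peptides, had a log2 fold change of -1.54. Of 76 orphan, lipid and adhesion receptors, 10 were called higher in D1 Con, among them *Adgrg6* (1.53) and *Gpr101* (0.88), and 4 higher in D2 Con (18.4% in all, against 4.98% of all genes tested). Without D2 Con 2 and D2 Con 5, 10 of these 14 kept their calls, and *Gpr101* did not (0.74, edgeR adjusted p = 0.0831). The cannabinoid receptor *Cnr1* lay at 115, 165, 162 and 163 CPM in D1 Con and at 72.9, 101, 89.8, 88.9 and 68.9 CPM in D2 Con, 1.79-fold higher in D1 Con. *Faah*, which degrades anandamide, was 1.63-fold higher, and the other 5 of 7 endocannabinoid genes were not called (28.6% called, against 4.98% of all genes tested).

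**Figure D3:**
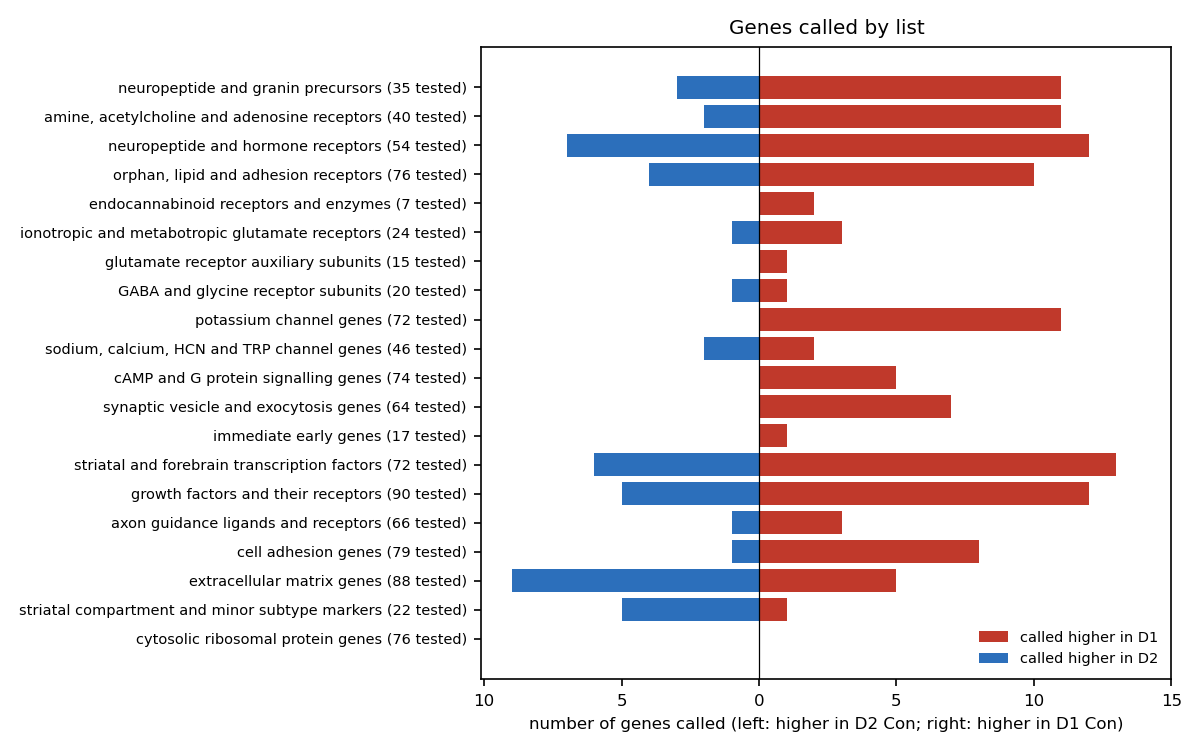
Bars give the number of genes of each list called higher in D1 Con (red, to the right) or higher in D2 Con (blue, to the left), with the number tested in brackets; some genes are on more than one list. Potassium channel genes show 11 calls to the right and none to the left, extracellular matrix genes 5 and 9, and ribosomal protein genes none.

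Ion channel and synaptic genes followed. Of 72 potassium channel genes, 11 were called (15.3%, against 4.98% of all genes tested), all higher in D1 Con, with a median log2 fold change of 0.09 over the list. At any fold change, 17 passed the p limit higher in D1 Con and 8 higher in D2 Con. D1 Con 1, the D1 library lowest in cortical markers, was the lowest D1 library in 9 of the 11. It was lowest in 356 of all 487 genes called higher in D1 Con. With the cortical markers as a covariate, in a model described further on, 5 of the 11 kept their calls. *Kcnc4*, a subunit of voltage-gated potassium channels, lay at 19.2, 41.2, 34.4 and 38.3 CPM in D1 Con and at 11.5 to 17.6 CPM in D2 Con. *Kcnj6*, *Kcnj5* and *Kcnj3*, subunits of the inward rectifiers that G proteins open, had log2 fold changes of 1.41, 1.25 and 0.86. Of 46 sodium, calcium, HCN and TRP channel genes, 4 were called (8.7%, against 4.98% of all genes tested). *Scn7a* and *Trpc5* were higher in D1 Con, and *Cacna2d2* was among 2 higher in D2 Con. The call of *Scn7a*, which stayed under 1 CPM, was lost under 11 of 17 alternatives that gave it a value, among them no filter on low counts (edgeR adjusted p = 0.0577) and leaving out D2 Con 2 and D2 Con 5 (edgeR adjusted p = 0.175). *Cacna2d2* (log2 fold change -0.60) lay close to the fold limit and fell below it under 7 of 20, to -0.58 without D2 Con 2 and D2 Con 5. *Trpc5*, which forms a calcium-permeable cation channel, lay at 16.8 to 28.5 CPM in D1 Con and at 10.7 to 15.6 CPM in D2 Con. Glutamate receptor genes were mostly not called: of 24, *Grm8*, *Grm2* and *Grin3a* were called higher in D1 Con (log2 fold changes of 0.99, 0.87 and 0.74) and *Grik3* higher in D2 Con. These were 16.7% of the 24, against 4.98% of all genes tested. Without D2 Con 2 and D2 Con 5, *Grm2* (0.76, edgeR adjusted p = 0.0681) and *Grin3a* (0.64, edgeR adjusted p = 0.05) were not called. Of 15 genes for auxiliary subunits of glutamate receptors, only *Cnih3*, a cornichon that slows AMPA receptor closing, was called (6.67%, near the 4.98% of all genes tested). It lay at 32.6, 55.0, 42.9 and 48.4 CPM in D1 Con against 18.1 to 25.4 CPM in D2 Con. *Cnih3* was not called with the cortical markers as a covariate (log2 fold change 0.49, edgeR adjusted p = 0.0504). Of 20 GABA and glycine receptor subunits, *Glra2* was called higher in D1 Con and *Gabrg3* higher in D2 Con (10.0% in all, against 4.98% of all genes tested). Neither was called without D2 Con 2 and D2 Con 5, where *Glra2* fell from 0.74 to 0.52 on the log2 scale and *Gabrg3* moved from -0.79 to -0.69 (edgeR adjusted p = 0.0962).

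Among 74 genes of cAMP and G protein signalling, 5 were called (6.76%, near the 4.98% of all genes tested), all higher in D1 Con. At any fold change, 30 of the 74 passed the p limit, 14 higher in D1 Con and 16 higher in D2 Con. Summed over the list, D2 Con libraries averaged 1.08 times the level of D1 Con libraries. *Gnb4*, a G protein beta subunit, lay at 135, 126, 130.3 and 116 CPM in D1 Con and at 62.9, 63.7, 71.1, 71.8 and 59.7 CPM in D2 Con. It differed 1.92-fold (edgeR adjusted p = 1.92e-09) and was above input in D1 Con by 0.90 on the log2 scale. *Adcy2*, an adenylyl cyclase, was 1.62-fold higher in D1 Con and *Gna14* 9.28-fold, the latter at 0.663 to 1.56 CPM. Of 64 genes of synaptic vesicles and exocytosis, 7 were called (10.9%, against 4.98% of all genes tested), all higher in D1 Con, with log2 fold changes of 0.67 (*Sv2b*) to 1.57 (*Syt17*). *Syt13* lay at 97.8 to 173 CPM in D1 Con and at 56.6 to 85.9 CPM in D2 Con. In all 7 of them D1 Con 1 was the lowest D1 library, as in 356 of all 487 genes called higher in D1 Con. With the cortical markers as a covariate 3 of the 7 kept their calls (*Syt17*, *Cplx3*, *Stx1a* and *Sv2b* did not). Of 17 immediate early genes only *Nr4a2* was called (5.88%, near the 4.98% of all genes tested). It lay at 31.6, 62.8, 41.6 and 21.7 CPM in D1 Con against 8.53 to 13.2 CPM in D2 Con. The median of the list was -0.22.

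Transcription factors of the striatum and forebrain were called in both directions, 13 of 72 higher in D1 Con and 6 higher in D2 Con. Together these were 26.4% of the 72, against 4.98% of all genes tested. After *Ebf1*, the D1 side was led by *Ebf2* (at most 0.450 CPM), *Rorb* (log2 fold change 1.55), *Id2* (1.47) and *Nr2f2* (1.38). The call of *Ebf2* was lost under 8 of 17 alternatives that gave it a value and that of *Nr2f2* under 6 of 20, in both genes also without D2 Con 2 and D2 Con 5 (edgeR adjusted p = 0.131 and 0.138). *Rorb* (0.58, edgeR adjusted p = 0.182) and *Id2* (-0.19, edgeR adjusted p = 0.72) were not called with the cortical markers as a covariate. On the D2 side, *Casz1* lay at 15.8, 15.1, 11.0, 13.1 and 17.1 CPM against 4.66 to 7.66 CPM in D1 Con, and *Tshz1* at 165, 181, 135, 151 and 155 CPM against 73.1 to 91.4 CPM. Both are zinc finger genes also listed as markers of minor MSN subtypes. Of 22 compartment and minor subtype markers, 5 were called higher in D2 Con (*Casz1*, *Tshz1*, *Stard5*, *Sema5b* and *Otof*) and 1 higher in D1 Con (*Rxfp1*), which was not called without D2 Con 2 and D2 Con 5 (1.01, edgeR adjusted p = 0.0875). In all, 27.3% of this list was called, against 4.98% of all genes tested. All 5 on the D2 side were above the D2 line's input.

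Among 90 growth factors and receptors, 12 were called higher in D1 Con and 5 higher in D2 Con (18.9% in all, against 4.98% of all genes tested). *Bdnf*, the neurotrophin, lay at 3.31, 13.2, 12.5 and 6.61 CPM in D1 Con and at 1.11, 2.16, 1.99, 0.810 and 1.17 CPM in D2 Con, 6.20-fold apart (edgeR adjusted p = 2.38e-05). *Igfbp4*, which binds insulin-like growth factors, showed less spread, at 79.1, 65.4, 64.6 and 67.3 CPM against 18.6 to 28.1 CPM, 2.77-fold. *Wnt7b* had a log2 fold change of 1.85. On the D2 side was *Kdr*, a VEGF receptor of endothelium (-1.47), which was below input in both lines. Of 88 extracellular matrix genes, 9 were called higher in D2 Con and 5 higher in D1 Con (15.9% in all, against 4.98% of all genes tested). All 9 on the D2 side lay below the D2 line's input. They included *Col24a1*, *Col5a3*, *Fn1* and *Lamc3*, whose calls were each lost under several alternatives. Those of *Col5a3*, *Fn1* and *Lamc3* were lost both without D1 Con 1 and without D2 Con 2 and D2 Con 5. Of the 14 called matrix genes, 6 kept their calls without D1 Con 1, 8 without D2 Con 2 and D2 Con 5, and 3 with the cortical markers as a covariate. Of 79 cell adhesion genes, 8 were called higher in D1 Con and 1 in D2 Con (11.4% in all, against 4.98% of all genes tested). *Cntnap3*, of the contactin-associated family, was 2.23-fold higher in D1 Con, at 29.2 to 41.1 CPM against 12.8 to 16.9 CPM. Of 66 axon guidance genes, 4 were called (6.06%, near the 4.98% of all genes tested). *Ntng2*, *Ephb3* and *Plxna1* were higher in D1 Con and *Sema5b* higher in D2 Con. *Ntng2* (0.27, edgeR adjusted p = 0.445) and *Ephb3* (0.52, edgeR adjusted p = 0.381) were not called with the cortical markers as a covariate.

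Markers of other cell types were then read in the same libraries. Of 6 cholinergic interneuron markers, 5 were called, all higher in D2 Con. *Chat*, the enzyme that makes acetylcholine, lay at 22.4, 16.2, 21.6, 21.6 and 28.3 CPM in D2 Con and at 1.64, 1.73, 2.12 and 1.69 CPM in D1 Con, 12.2-fold apart (edgeR adjusted p = 3.43e-10). *Slc18a3*, the vesicular acetylcholine transporter, was 21.9-fold higher in D2 Con, but it lies inside *Chat* on chromosome 14 (32462438 to 32464850) on the same strand, so that the counts of the pair are not independent. *Slc5a7*, the choline transporter, was 10.5-fold higher and *Slc10a4* 7.55-fold. *Lhx8*, a factor of cholinergic development, was not called (log2 fold change -0.32, edgeR adjusted p = 0.53). Summed over the list, D2 Con libraries held 74.6 to 119.8 CPM and D1 Con libraries 12.5 to 14.1 CPM. Against input, *Chat* stood at log2 0.76 in D2 Con and at -3.01 in D1 Con. These genes thus moved with the D2 side of the comparison, and their part in the other D2-higher genes was not tested.

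Interneuron markers split by type. Of the *Pvalb* and *Pthlh* list, *Pthlh*, *Cox6a2* and *Kit* were called higher in D1 Con, at 14.7-fold, 10.3-fold and 1.95-fold, while *Pvalb* (log2 fold change 0.38) and *Syt2* (0.05) were not called. In all 3 called genes D1 Con 1 was the highest D1 library. *Sst* (-0.01), *Nos1* (-0.11), *Chodl* and *Cort* were not called, in contrast to *Npy* on the same list. Of 5 markers of other interneurons, *Cck*, *Htr3a* and *Vip* were called higher in D1 Con, *Calb2* and *Cxcl14* not. The call of *Vip* was lost under 8 of 19 alternatives, among them the 9 control IPs alone (edgeR adjusted p = 0.0558). With the cortical markers as a covariate none of *Cck*, *Htr3a* and *Vip* was called, whereas *Calb2* was (log2 fold change 2.18, edgeR adjusted p = 0.000552, against 0.82 without it). *Th*, the first enzyme of dopamine synthesis, lay at 15.2, 13.8, 12.6, 14.8 and 11.6 CPM in D2 Con and at 7.09 to 7.92 CPM in D1 Con, while *Ddc*, *Slc6a3* and *Slc18a2* were not called. Glial and vascular lists held few calls. None of 6 astrocyte, 6 oligodendrocyte, 5 endothelial and mural and 4 ependymal and choroid plexus genes tested was called by edgeR or DESeq2, while 2, 2, 0 and 2 of them had an unadjusted p under 0.05 in edgeR. Of 6 microglia genes, *Cx3cr1* was called higher in D2 Con (log2 fold change -0.59). That call was lost under most alternatives tried, also without D1 Con 1 and without D2 Con 2 and D2 Con 5. The microglia list summed to 10.5 to 12.6 CPM in D1 Con and 13.8 to 16.8 CPM in D2 Con.

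Genes of cortical and other glutamatergic neurons moved with the D1 side. Of 8 such markers, 5 were called, all higher in D1 Con, and all 8 estimates were positive. Of the 5, *Neurod6* lost its call under 9 of 20 alternatives, 6 of which left out a single library. It was also lost in DESeq2 (DESeq2 adjusted p = 0.073) and without D2 Con 2 and D2 Con 5 (edgeR adjusted p = 0.142). *Slc17a7*, the vesicular glutamate transporter of cortical neurons, lay at 303, 841, 572 and 586 CPM in D1 Con and at 71.9, 154, 207, 68.3 and 119 CPM in D2 Con. The groups did not overlap although each spread widely, and the log2 fold change was 2.22 (SE 0.50, edgeR adjusted p = 0.00269). *Tbr1*, a factor of cortical projection neurons, behaved alike, at 37.3, 97.9, 77.8 and 60.1 CPM against 8.59 to 28.1 CPM. The list summed to 390.4, 1065, 739 and 716 CPM in D1 Con and to 99.6 to 279 CPM in D2 Con. The estimates of *Slc17a7* and *Tbr1* lay above input in D1 Con, but neither passed the p limit (log2 0.75 and 0.70, edgeR adjusted p = 0.11 for each). Both genes were below input in D2 Con (log2 -1.96 and -1.88).

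**Figure D4:**
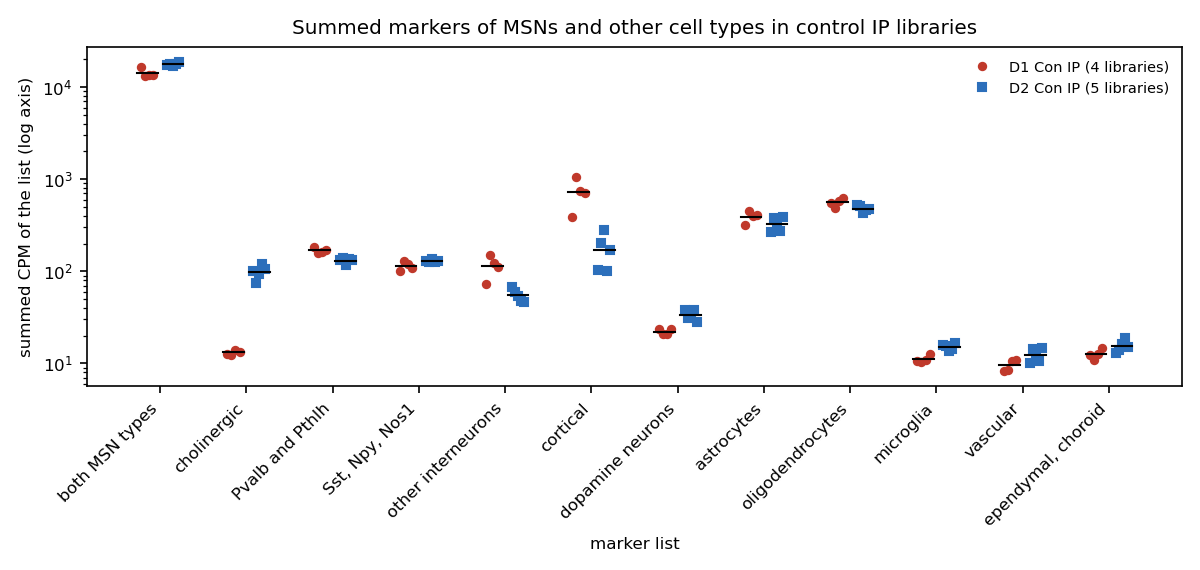
Summed CPM (log axis) of the marker lists of each cell type in the 4 D1 Con libraries (red circles) and the 5 D2 Con libraries (blue squares), with black bars for the group means. The cortical list is higher in every D1 Con library, with D1 Con 1 lowest of the 4, and the cholinergic list is higher in every D2 Con library, while the astrocyte and oligodendrocyte sums overlap between the groups.

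Other D1-higher genes varied between D1 Con libraries as the cortical list did. D1 Con 1 was the lowest D1 library in 356 of the 487 genes called higher in D1 Con and the highest in 34. Its median log2 ratio to the D2 Con mean over these genes was 0.50, against 0.90 to 0.99 in the other D1 Con libraries. The 34 genes in which it was highest included *Drd1*, *Pdyn*, *Tac1*, *Chrm4*, *Ebf1* and *Slc35d3*, that is, 6 of the 8 called D1-MSN markers, together with *Pthlh*, *Kit*, *Cox6a2*, *Gnb4* and *Igfbp4*. Without D1 Con 1, 627 genes were called higher in D1 Con and 218 higher in D2 Con, and 474 of the 487 and 182 of the 222 genes kept their calls.

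With the log2 of the summed cortical markers as a covariate in the model of the 28 IPs, an alternative chosen after these values were seen, 404 genes were called higher in D1 Con and 145 higher in D2 Con. Of the 487 genes, 227 kept their calls, and of the 222 genes, 107 did. All 8 called D1-MSN markers kept theirs, among them *Pdyn* at a log2 fold change of 2.65, *Drd1* at 1.36 and *Ebf1* at 3.95, as did 7 of 8 D2-MSN markers; *Six3* fell below the fold limit at -0.58. *Oxtr* (1.19), *Adcyap1* (1.79), *Chat* (-3.23) and *Pthlh* (5.02) were called with the covariate as well. *Bdnf* (1.18, edgeR adjusted p = 0.0742), *Cck* (0.16, edgeR adjusted p = 0.576), *Nmbr*, *Kcnj3*, *Kcnj6*, *Nr4a2* and *Syt17* were not. Among other genes described here, *Adcy2* (0.57), *Adgrg6* (0.77), *Bhlhe22* (0.92), *Faah* (0.35), *Grm2* (0.08) and *Htr5b* (1.58) also lost their calls. So did *Otof* (-0.32), *Rxfp1* (0.52), *Th* (-0.30) and *Wnt7b* (0.25). The cortical list does not overlap between D1 Con and D2 Con, so the covariate takes up part of the difference between the lines itself, and the part of cortical RNA in the D1-higher genes cannot be told apart from it.

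**Figure D5:**
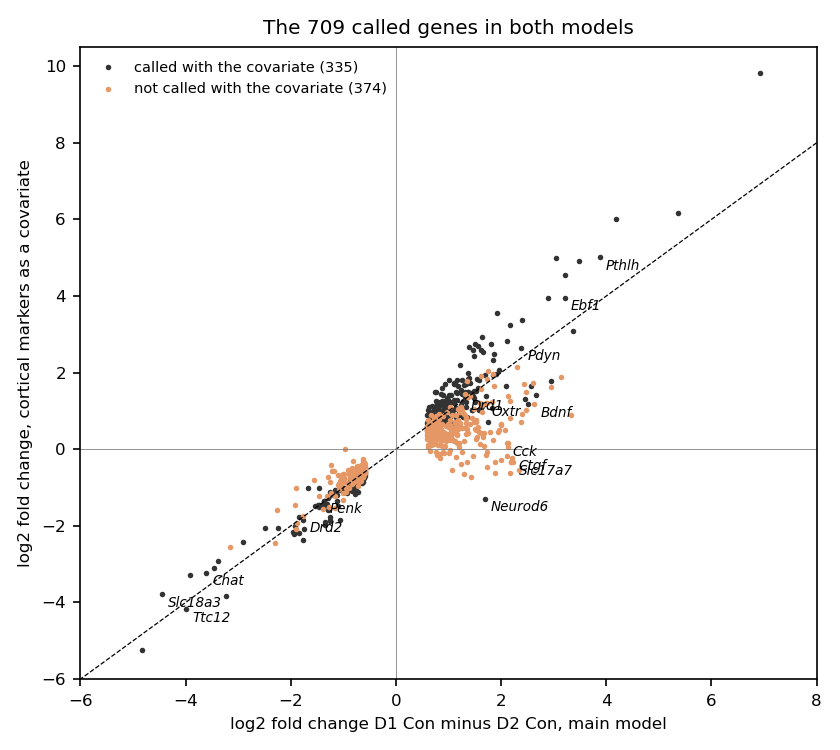
Each point is 1 of the 709 called genes, with its log2 fold change (D1 Con minus D2 Con) in the main model on the horizontal axis and in the model with the summed cortical markers as a covariate on the vertical axis; the dashed line marks equal values. Dark points are the 335 genes also called with the covariate, 1 of them (*Neurod6*) in the opposite direction, and orange points the 374 not called with it. Counting *Neurod6*, 260 calls on the D1 side (53.4%) and 115 on the D2 side (51.8%) were not kept.

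The neighbourhood of the genes whose regulatory sequence drives Cre was looked at separately. Of 8 genes tested within 500 kb of *Drd2* on chromosome 9, 3 were called, against 4.98% of all genes tested. *Ttc12*, 28.8 kb away (49436963 to 49486225), lay at 14.8, 14.2, 16.5, 12.4 and 15.4 CPM in D2 Con and at 0.920, 0.957, 1.07 and 0.676 CPM in D1 Con, 16.0-fold apart. *Ankk1*, a kinase gene 7.02 kb away, had 14, 16, 21, 16 and 10 counts in D2 Con and 0, 2, 0 and 0 in D1 Con, a ratio of 35.9 in summed counts per read (exact 95% binomial interval 9.61 to 302). *Htr3a*, 430 kb away, was called higher in D1 Con. *Ncam1*, *Zw10*, *Tmprss5*, *Gm11149* and *Usp28* were not called, although *Usp28* was below the p limit (edgeR adjusted p = 0.00138) with a log2 fold change of -0.40. Within 500 kb of *Drd1* on chromosome 13, 6 genes were tested and *Sfxn1* was the only one called, against 4.98% of all genes tested. *Simc1*, 448 kb away, passed the p limit (edgeR adjusted p = 0.0219) at a log2 fold change of -0.37.

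Inputs showed what the whole tissue of each line held. Between the 9 inputs of the D1 line and the 9 of the D2 line, with stress as a covariate, 2 of 14461 genes were called (0.0138%), *Ttc12* and *Mid1*. *Ttc12* was higher in the D2 line, by -1.76 on the log2 scale of the D1 line minus the D2 line (edgeR adjusted p = 3.05e-05), so that a difference was also present before precipitation. *Mid1*, which was higher in the D1 line (1.10), was not called in the IPs. *Drd2* (-0.33), *Ndnf* (-0.90) and *Ndn* (0.61) differed in the same direction as in the IPs without passing the test, and *Slc17a7* (-0.34) in the opposite direction. Of 477 D1-higher and 217 D2-higher genes that could be tested in the inputs, *Ttc12* was the only one called. With only the 6 control inputs edgeR called 0 genes, and 454 had an unadjusted p under 0.05.

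The same contrast in the 19 IPs of defeated mice, which share no library with the controls but come from the same lines, called 1038 genes (7.30%), 689 higher in D1 and 349 higher in D2. All 487 genes called higher in D1 Con had the same direction there and 424 were called. Of the 222 called higher in D2 Con, 221 had the same direction and 143 were called. Their medians were 0.91 and -0.73 on the log2 scale. All 16 called MSN markers were called in the defeated mice in the same direction, with *Pdyn* at 2.33, *Drd1* at 1.29, *Drd2* at -1.84 and *Ebf1* at 2.58. The contrasts were also tested against each other (edgeR), and 0 genes passed after adjustment, with 288 of 14224 under 0.05 before it.

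Beyond the lists, the genes with the largest separate ranges and at least 5 CPM add other functions. On the D2 side, *Ndnf*, a secreted neurotrophic factor, lay at 51.7, 71.4, 68.5, 65.5 and 66.0 CPM in D2 Con and at 3.17, 6.96, 7.78 and 9.72 CPM in D1 Con, 9.38-fold apart (edgeR adjusted p = 1.09e-09). It was above input in D2 Con by 1.65 on the log2 scale. *Mdfic*, an inhibitor of MyoD family factors, was 3.89-fold higher in D2 Con, and *Pappa2*, a protease that frees insulin-like growth factors, 3.78-fold. On the D1 side, *Frzb*, a secreted inhibitor of Wnt signals, lay at 6.07, 18.1, 15.2 and 12.1 CPM in D1 Con against 1.35 to 3.23 CPM, and *Medag*, *Fam19a1* and *Bhlhe22* differed 5.68-fold, 5.46-fold and 5.25-fold. In each of these 4 genes D1 Con 1 was the lowest D1 library, as in 356 of all 487 genes called higher in D1 Con.

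Among the called genes with most counts, which favours long transcripts, *Ndn*, an imprinted gene of neurons, lay at 402, 394, 286 and 403 CPM in D1 Con and at 175, 247, 166, 168 and 189 CPM in D2 Con, 1.97-fold higher in D1 Con. On the D2 side, *Hpca*, which encodes the calcium sensor hippocalcin, was 1.51-fold higher in D2 Con, so close to the limit that its call was lost under 9 of 20 alternatives, at -0.51 on the log2 scale without D2 Con 2 and D2 Con 5. The long noncoding RNA *Meg3* lay at 3483, 3713, 3175, 3793 and 5101 CPM in D2 Con and at 2223 to 2453 CPM in D1 Con. It was below input in both lines, and its call was lost under 5 of 20 alternatives. The log2 fold change of *Meg3*, -0.69 in the main model, was -0.54 without D2 Con 2 and D2 Con 5 (edgeR adjusted p = 0.146), -0.55 with a replicate block in the model of 28 IPs and -0.44 with the cortical markers as a covariate.

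Called genes did not all lie above the input of the line in which they were higher. Of 485 D1-higher genes with a value, 115 were above the D1 line's input at an adjusted p under 0.05 (edgeR), 134 below it and 236 neither. Of 220 D2-higher genes, 88 were above the D2 line's input, 80 below it and 52 neither. The D1-higher genes above input included *Drd1*, *Pdyn*, *Tac1*, *Chrm4*, *Isl1*, *Oxtr* and *Gnb4*, and those below it *Rorb*, *Id2* and *Agt*. The D2-higher genes above input included *Drd2*, *Penk*, *Oprd1*, *Chat*, *Ndnf*, *Mdfic* and *Tshz1*, and those below it *Npy*, *Meg3*, *Kdr* and the matrix genes. Without D2 Con 2 and D2 Con 5, 393 genes were called higher in D1 Con and 130 higher in D2 Con, and 356 of the 487 and 122 of the 222 genes kept their calls.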

How the data were processed

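The authors precipitated HA-tagged ribosomes and made stranded libraries from poly-A RNA. They trimmed reads with cutadapt, used STAR for alignment to mm10 and HTSeq for counting; versions, annotation and strand setting are not given in the sources used here, nor is the sequencing set of each library. The deposited values are raw counts per gene symbol (24552 genes). Another 5 entries that name no gene took 18.7% to 27.0% of the control IP reads and were left out. Columns without a matching sample label (2) and the table of another experiment were not used. Gene positions are from GENCODE vM21 on GRCm38, promoters from RefSeq.

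Computed here: TMM factors, filterByExpr (minimum count 10, total 15) and quasi-likelihood tests in edgeR 4.0.16 (R 4.3.3), in 1 model of 28 IPs with 6 group means and Benjamini-Hochberg adjustment. DESeq2 1.42.0, other scalings and filters, the 9 control IPs alone, a replicate block and leaving out each library were alternatives. Inputs were tested with stress as a covariate. The fit was tested on simulated data. No 2 replicates agreed within sampling noise. The members, gene lists and tests were chosen with earlier results of these data known. Named genes are the MSN markers, up to 6 called members per list with the largest change, small cell type lists, the 10 largest separate changes per direction at 5 CPM or more, the 10 called genes per direction with most counts, and neighbours of *Drd1* and *Drd2*. *Mid1* and *Rn45s* were added to these once their values were known. Some genes that this rule selects are not reported here.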

Additional observations from a re-analysis of the deposited data

Results flagged for a closer look

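A library was singled out where its gap to the nearest library of its group, divided by the range of the group, exceeded the 95% critical value of Dixon's test. Of 434 groups of values for named genes and list sums, 31 libraries in all were singled out this way (7.14%), where chance gives about 1 in 20. D1 Con 1 accounted for 7 of them. It was highest of D1 Con in *Gpr6* (63.7 CPM), *Tac1* (389 CPM), the summed genes of both MSN types (16551 CPM) and the summed cAMP and G protein signalling genes (19012 CPM), and lowest in *Cnr1* (115 CPM), *Dlgap1* (287 CPM) and the summed growth factors and receptors (2338 CPM).

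Among the other D1 Con libraries, D1 Con 2 stood apart in *Ankk1* (0.0737 CPM) and *Cplx3* (16.0 CPM), where it was highest, and in *Mbp* (192 CPM), where it was lowest. D1 Con 3 was lowest in *Gabrg3* (7.39 CPM), *Lhx8* (3.65 CPM) and *Ndn* (286 CPM) and highest in *Tmem119* (1.07 CPM). D1 Con 4 was highest in *Aldh1l1* (7.69 CPM), *Hrh2* (2.18 CPM), *Slc18a3* (0.713 CPM) and the summed microglia markers (12.6 CPM), and lowest in *Th* (7.09 CPM).

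In D2 Con, D2 Con 1 was highest in *Mag* (18.9 CPM) and lowest in the summed axon guidance genes (3422 CPM). D2 Con 2 was highest in *Sp9* (64.1 CPM) and *Ndn* (247 CPM) and lowest in *Slc10a4* (13.1 CPM) and *Gm11149* (0.0490 CPM). D2 Con 3 was highest in *Chodl* (2.86 CPM), *Kcnc4* (17.6 CPM) and *Nr4a2* (13.2 CPM). D2 Con 4 was highest in *Tacr1* (37.7 CPM) and lowest in *Rph3a* (188 CPM), and D2 Con 5 was lowest in *Agtr1a* (1.21 CPM).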

How the results depend on the processing

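The main test called 709 genes, 487 higher in D1 Con and 222 higher in D2 Con. RLE factors gave 718 calls, upper quartile factors 701, no filter on low counts 712, a mean of at least 50 counts 580, DESeq2 753, the 9 control IPs alone 710 and library sizes without *Rn45s* (chosen after seeing the data) 719. Leaving out 1 library in turn gave 509 to 845 calls, 362 to 627 of them higher in D1 Con and 147 to 243 higher in D2 Con. The lowest counts came without D1 Con 2 and the highest total without D1 Con 1. A test against a fold of 1.5 left 167 calls (125 and 42). Calls higher in D2 Con fell to 130 without D2 Con 2 and D2 Con 5 and to 145 with the summed cortical markers as a covariate, both chosen after seeing the data. With that covariate the log2 fold changes of 10 named genes changed sign: *Adgrf5* (0.00016), *Cplx3* (-0.34), *Ctgf* (-0.22), *Emx1* (-0.63), *Fezf2* (-2.50), *Id2* (-0.19), *Neurod2* (-0.32), *Neurod6* (-1.29), *Slc17a7* (-0.34) and *Vip* (-0.38). Of these, *Fezf2* was not called without the covariate; it, *Emx1*, *Neurod2*, *Neurod6* and *Slc17a7* are part of the covariate itself, and for the others the cause was not tested. The call of *Adgrf5* was also lost without D1 Con 1 (edgeR adjusted p = 0.0508). The 6 control inputs gave 0 calls, with fewer samples than the 18 inputs. Replicate numbers were not taken to pair the libraries, since not every same-numbered pair deviated together. The correlation of deviations ran from -0.00885 to 0.15 over 4 same-numbered pairs, and 3 of 4 D1 Con libraries correlated best with their own number. The share of reads outside exons also moved with the number. Replicate 3 was lowest in each of the 6 groups of IPs. Replicate 5 ran from 13.9% to 17.6% in the IPs of defeated mice and was at 15.8% in D2 Con. D1 Con had no replicate 5 among the samples used, so the numbers are not balanced between the groups. These are hints from the data and not from the design, and what the numbers stand for is not given. With a replicate block, 704 genes were called in the model of 28 IPs and 609 in the 9 control IPs. Of 134 called genes selected for naming, 113 had a value under all 20 alternatives that were read gene by gene, and 62 of these never lost their call; of the other 21, with too few counts for some alternatives, 8 did not lose it where they had a value. The remaining 64 lost it, or changed sign, under at least 1. Depth limits genes with few counts: 62 called genes had means under 1 CPM in both groups.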
